A study of Mus musculus with 10 samples.

Results

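The platelet-derived growth factor (PDGF) family was examined in the aortic wall of a mouse abdominal aortic aneurysm (AAA) model: the 4 ligand genes Pdgfa, Pdgfb, Pdgfc and Pdgfd, and the 2 receptor genes Pdgfra and Pdgfrb. Members were taken by gene name from the spots of the array that are not controls, which gave all 6 genes among 35527 gene names, carried by 8 of 55681 probes. All 6 passed the filter on dim probes, as did 22519 names in all. The tissue was infrarenal aorta of male C57BL/6J mice aged 10 weeks, harvested at day 7. PPE mice had received porcine pancreatic elastase (PPE, 1.5 U per mL), an enzyme that digests elastin and weakens the vessel wall, infused into the aorta for 5 min at 100 mmHg, and sham mice had received saline in the same way. Each group held 5 arrays, with RNA of 1 mouse on each. Aortic RNA was labelled with the red dye (Cy5) and a universal mouse reference RNA with the green dye (Cy3), and every value below is a log2 ratio of aorta over reference or a difference between such ratios. The reference level of each gene is unknown, so the ratios of different genes cannot be set against each other as levels.

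PDGF ligands are secreted dimers that drive the growth and movement of mesenchymal cells. PDGF-A and PDGF-C signal through the alpha receptor, which marks fibroblasts, PDGF-B binds both receptors, and PDGF-D acts through the beta receptor of mural cells (pericytes and smooth muscle cells). In vessels, PDGF-B released by endothelium, platelets and macrophages recruits mural cells, and it moves cultured smooth muscle cells away from the contractile state. PDGF-C and PDGF-D are secreted in a latent form that proteases must cut.

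Probes are placed as the array files give them, on build mm9. Both Pdgfa probes lie on the minus strand, at chr5:139452934-139452993 and chr5:139452925-139452984, and share 51 of their 60 bases, so they are not independent readings. The Pdgfb probes lie on the minus strand at chr15:79826376-79826435 and chr15:79827438-79827497, with starts 1062 bases apart. Single probes on the plus strand read Pdgfc (chr3:81017572-81017631), Pdgfd (chr9:6376926-6376985), Pdgfra (chr5:75593888-75593947, printed on 10 spots) and Pdgfrb (chr18:61244606-61244665). No annotation of exons or untranslated regions on mm9 was used here.

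The arrays fell on 5 slides. Sham 1 shared slide 1, which had its own scan day, with PPE 1 and PPE 2, and sham 2 and sham 3 shared slide 2 with PPE 3 and PPE 4. Sham 4, sham 5 and PPE 5 were each alone among these 10 arrays on a slide. Red signal was well above background on 37.6% to 65.8% of spots, with the lowest share of each group on sham 5 (37.6%) and PPE 5 (45.8%). The limma threshold was an adjusted p under 0.01. It called 3116 names higher in PPE (13.8% of those tested) and 2243 lower (9.96%), and for 5732 names (25.5%) sham and PPE arrays did not overlap. Over all names the median log2 fold change was 0.02. Precision is limited throughout by 5 arrays per group. In whole tissue, a change in the number of cells of a type and a change in RNA per cell cannot be told apart.

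Within the family, Pdgfb and Pdgfra were upregulated in PPE, Pdgfc was downregulated, and Pdgfa, Pdgfd and Pdgfrb did not pass the threshold. Thus 2 of 6 members were called higher and 1 of 6 lower, beside 13.8% and 9.96% of all names tested, and the groups did not overlap for 2 members, Pdgfb and Pdgfc, beside 25.5% of all names. A family of 6 is too small to be set apart from the other genes by these counts.

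**Figure D1:**
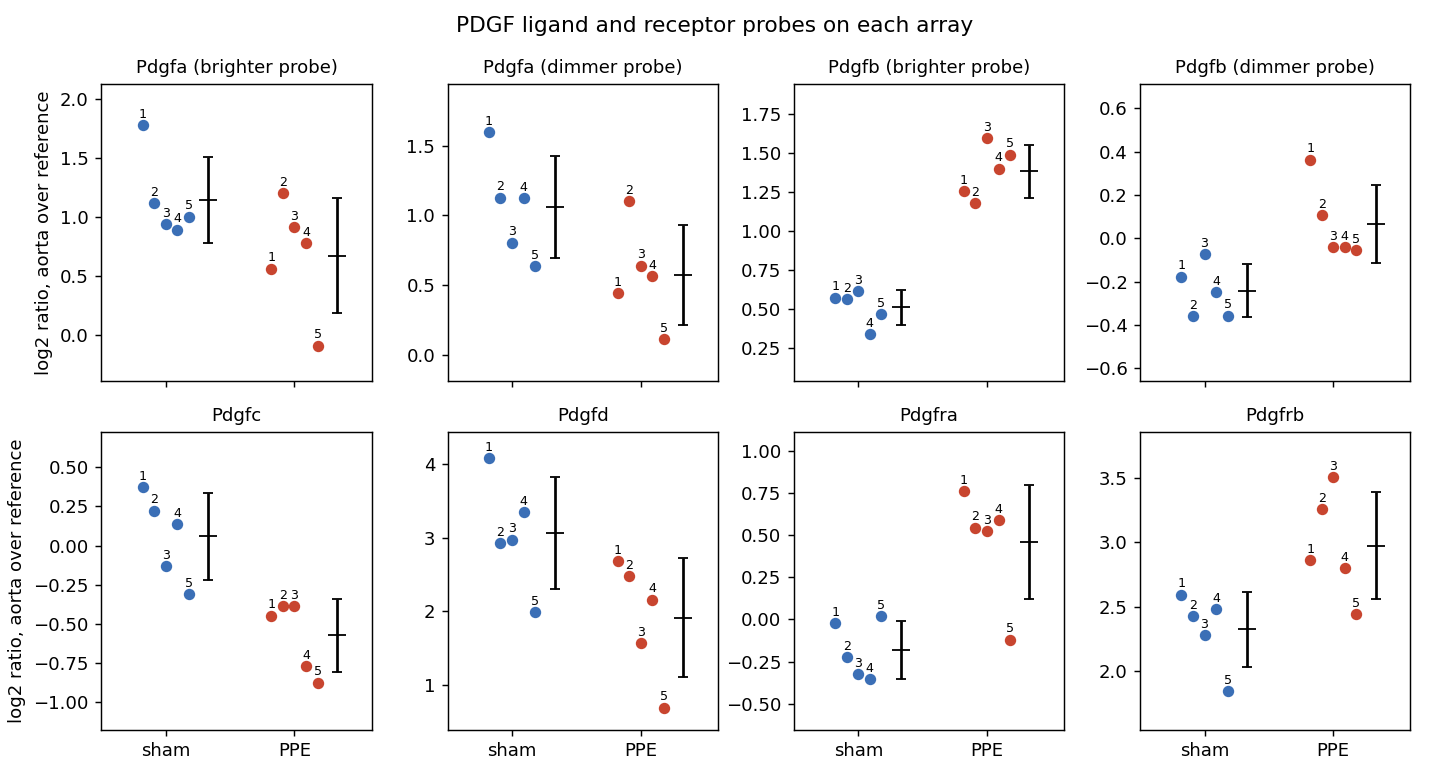
Log2 ratio of aorta over reference (vertical axis) for each of the 8 probes, with 1 point per array labelled by replicate number, sham in blue and PPE in red, and bars for mean ± SD (n = 5 per group). The groups separate for both Pdgfb probes and for Pdgfc, while PPE 5 lies among the sham arrays for Pdgfra and lowest of all arrays for Pdgfa and Pdgfd.

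Pdgfb was the member with the clearest difference. The log2 ratios of its brighter probe were 0.57, 0.56, 0.62, 0.34 and 0.47 on sham 1 to 5, and 1.25, 1.18, 1.59, 1.40 and 1.49 on PPE 1 to 5. The lowest PPE array thus lay well above the highest sham array. The means were 0.51 ± 0.11 in sham and 1.38 ± 0.17 in PPE (SD, n = 5 each), a log2 fold change of 0.87 (SE 0.11) or 1.83-fold, with a limma adjusted p of 9.65e-05. The difference was 0.64 within slide 1 and 0.91 within slide 2, and it stayed past the threshold when any 1 array was left out. The second Pdgfb probe was dim, with red signal well above background on 3 sham and 5 PPE arrays. Its groups also did not overlap, at -0.36 to -0.07 in sham and -0.05 to 0.36 in PPE, with a smaller log2 fold change of 0.31 (limma adjusted p over all probes 0.0565).

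Pdgfa, which encodes the chain that binds the alpha receptor alone, gave 1.78, 1.11, 0.94, 0.89 and 1.002 on sham 1 to 5 and 0.56, 1.199, 0.91, 0.78 and -0.09 on PPE 1 to 5. The groups overlapped, with sham 1 high and PPE 5 low against the rest of their groups. The log2 fold change was -0.47 (95% interval -1.001 to 0.06, limma adjusted p 0.158), and it was 0.27 (limma adjusted p 0.849) when arrays were centred on their median in place of loess. The overlapping second probe gave -0.49 (limma adjusted p over all probes 0.0971). Pdgfa differed by -0.90 within slide 1 and by -0.18 within slide 2.

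Pdgfc, a latent ligand of the alpha receptor, was lower in PPE. Its ratios were 0.37, 0.22, -0.13, 0.14 and -0.31 on sham 1 to 5, and -0.45, -0.39, -0.39, -0.77 and -0.88 on PPE 1 to 5. Every PPE array lay below every sham array, although PPE 2 and PPE 3 came close to sham 5. The log2 fold change was -0.63 (SE 0.16), or 1.55-fold lower, with a limma adjusted p of 0.00826, and it was -0.79 within slide 1 and -0.63 within slide 2. The call was near the threshold. With 1 array left out it held without PPE 2 (adjusted p 0.00999) and without sham 5 (0.00359), and the adjusted p lay between 0.0103 and 0.0245 without any of the other 8 arrays.

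Pdgfd, the latent ligand of the beta receptor, showed a wide difference and the widest spread between arrays in the family. Its difference was larger than that of any other member with loess, but not with the scanner's own LogRatio. With median centring it was not the largest as given. Relative to the median over all names tested under that setting (0.41), it was -1.07, beside 1.045 for Pdgfb. With SEs of 0.50 for Pdgfd and 0.47 for Pdgfb, these sizes cannot be ranked. Pdgfd was read by a single dim probe, shown here 5′ to 3′ because the whole Pdgfd result rests on it.
Pdgfd probe: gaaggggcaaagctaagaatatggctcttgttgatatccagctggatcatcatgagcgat
The Pdgfd ratios were 4.08, 2.92, 2.97, 3.34 and 1.99 on sham 1 to 5, and 2.68, 2.48, 1.57, 2.16 and 0.69 on PPE 1 to 5. Sham 5 fell inside the PPE range and below 3 of the PPE arrays. In each group the highest ratio was on replicate 1 and the lowest on replicate 5. On sham 5 and PPE 5 the fewest red spots were above background, as given above. The means were 3.06 ± 0.76 in sham and 1.91 ± 0.80 in PPE (SD, n = 5 each), a log2 fold change of -1.15 (95% interval -2.07 to -0.22), which did not pass (limma adjusted p 0.0544). The green signal of this probe was well above background on 2 sham arrays and 1 PPE array, so the ratios divide by a reference signal near background. In the normalized red channel the difference was -1.28 (limma adjusted p 0.0162). That channel was taken after loess and scaling of brightness between arrays, which both use the green signal, so it is not free of it. With sham 5 and PPE 5 both left out, a choice made after the data were seen, the difference was -1.11 (limma adjusted p 0.0157). With slide as a fixed block it passed (-1.25, limma adjusted p 0.0013), and it was -1.50 within slide 1 and -1.09 within slide 2. With the scanner's LogRatio or the series matrix it was smaller, at -0.65 (limma adjusted p 0.207). With median centring it was -0.66 (limma adjusted p 0.476), or -1.07 relative to the median of 0.41 over all names tested.

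Of the receptors, Pdgfra gave -0.02, -0.23, -0.32, -0.35 and 0.02 on sham 1 to 5, and 0.76, 0.54, 0.52, 0.59 and -0.12 on PPE 1 to 5. On 4 PPE arrays the ratio was above every sham array, and on PPE 5 it lay within the sham range. The log2 fold change was 0.64 (SE 0.16), or 1.56-fold higher, with a limma adjusted p of 0.0094. The difference was 0.68 within slide 1 and 0.83 within slide 2. Without PPE 5 it was 0.79 (limma adjusted p 0.000376), and without any 1 of the other 9 arrays the adjusted p was between 0.0102 and 0.027, so the call rests on all arrays or on the absence of PPE 5.

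The Pdgfra probe was printed on 10 spots of each array, which gives the error of a single reading. The SD among the spots of 1 array had a median of 0.11 and ranged from 0.05 on PPE 1 to 0.33 on PPE 5, where single spots ran from -0.49 to 0.59. Between arrays the SD was 0.17 for sham, 0.34 for PPE and 0.11 among the PPE arrays other than PPE 5. The low Pdgfra value of PPE 5 was therefore also the least precise of the 10 by its spots. These SDs are of single spots, and the array value is a mean of 10 spots, which is more precise. That mean was -0.12 on PPE 5, against 0.52 on PPE 3, the next PPE array.

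**Figure D2:**
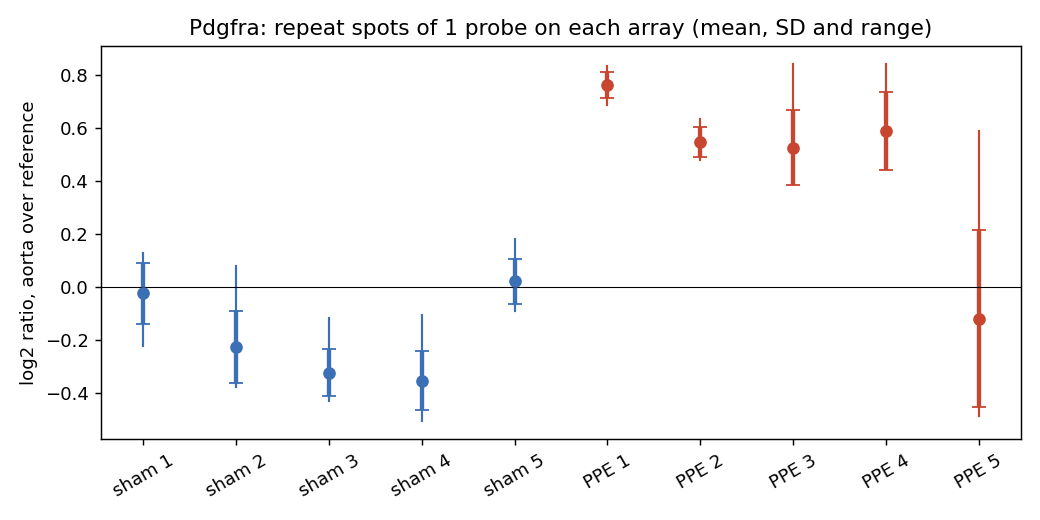
Log2 ratio of Pdgfra (vertical axis) on each array, with the mean of up to 10 repeat spots as a point, the SD as a thick bar and the full range as a thin line. Spots of PPE 1 to PPE 4 all lie above 0.38, and those of PPE 5 spread from -0.49 to 0.59 across the sham range.

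Pdgfrb gave 2.59, 2.43, 2.28, 2.48 and 1.85 on sham 1 to 5, and 2.86, 3.25, 3.50, 2.80 and 2.45 on PPE 1 to 5. PPE 5 lay within the sham range, and the other 4 PPE arrays lay above it. The log2 fold change was 0.65 (SE 0.21, 95% interval 0.20 to 1.10), or 1.57-fold, and did not pass (limma adjusted p 0.0292). It was 0.46 within slide 1 and 0.80 within slide 2. Leaving out PPE 5 gave 0.78 with a limma adjusted p of 0.00777.

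Paired on the same arrays, the members could be compared for unequal change, in 3 pairs with exact two-sided permutation tests over 252 relabellings (smallest possible p 0.00794). The difference between the receptors, Pdgfrb minus Pdgfra, was 2.51 in both groups, and its change was 0.01 (95% interval half-width 0.55, exact p = 0.976). A change of up to about that half-width in either direction remained possible. Pdgfb minus Pdgfa moved from -0.63 ± 0.33 in sham to 0.71 ± 0.57 in PPE (SD, n = 5 each), a change of 1.34 with no overlap (exact p = 0.00794, 0.0238 adjusted over the 3 pairs). For the latent ligands, Pdgfd minus Pdgfc changed by -0.51 (95% interval half-width 0.89, exact p = 0.214, adjusted 0.321).

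**Figure D3:**
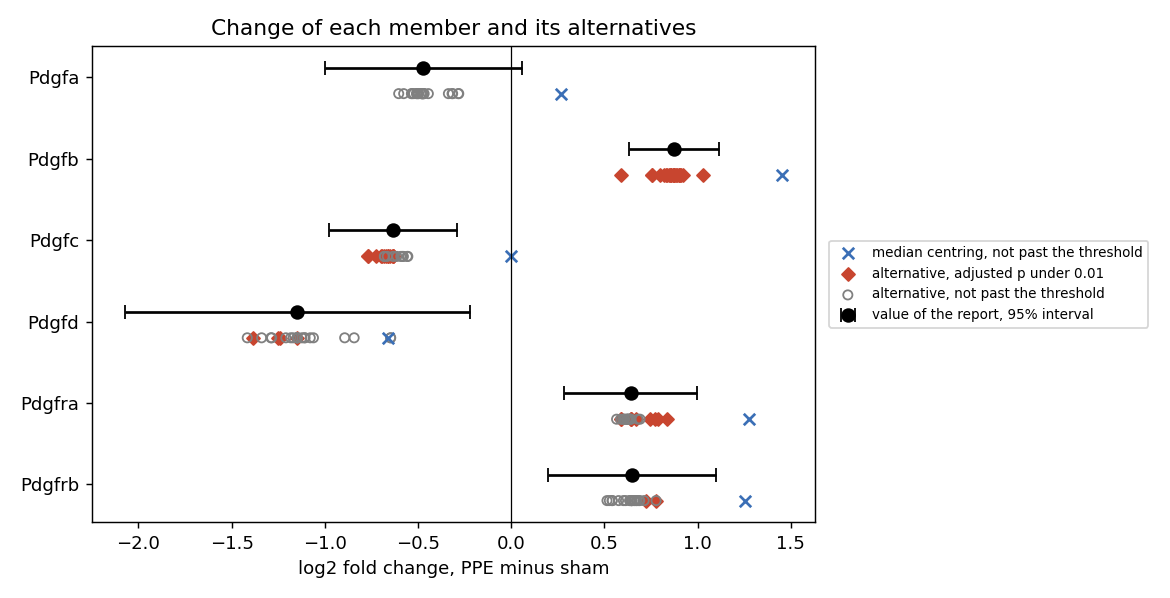
Log2 fold change of PPE over sham (horizontal axis) for each member, with the reported value and its 95% interval in black and the values under 25 other settings below it, filled red where the adjusted p was under 0.01 and blue crosses for median centring. Pdgfb was called under 24 of 25 settings, Pdgfc under 14, Pdgfra under 10, Pdgfd under 4, Pdgfrb under 2 and Pdgfa under 0, and Pdgfa alone crosses 0. The settings are not separate checks. Aquantile and the changes of filter leave the fold changes of the members as they are, and the series matrix repeats those of LogRatio.

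Genes that act on the ligands outside the cell were read next. Of 11 tested genes for ligand activation and binding, 3 were called higher and 1 lower, with a median log2 fold change of 0.18. For this and every later list, the shares over all names tested are 13.8% higher and 9.96% lower, with a median of 0.02. With lists this short, shares such as 3 of 11 and 1 of 11 are not set apart from them. In every list a gene could also pass the filter on the arrays of 1 group alone, the group where it is high. With the filter set to all 10 arrays, 3 genes of this list were called. Thrombospondin-1 (Thbs1), a matrix protein that binds growth factors, was higher by 3.22 (limma adjusted p 5.14e-05). Furin, a convertase that cuts the PDGF-A and PDGF-B precursors, was higher by 0.76 (adjusted p 0.00225), and Plau (urokinase), which can cut PDGF-D, by 0.89 (adjusted p 0.00645). Another convertase, Pcsk6, was lower, at -1.51 (adjusted p 9.36e-05). Plat, the tissue plasminogen activator that cuts PDGF-C, was at -0.09 (adjusted p 0.682).

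Downstream of the receptors, 22 adaptors and enzymes were tested, of which 6 were called higher and 2 lower (median 0.10). With the filter set to all 10 arrays, 7 were called. The scaffold Slc9a3r1 (1.42, limma adjusted p 6.42e-05), the Ras adaptor Grb2 (1.05, adjusted p 6.99e-05) and the Src-family kinase Fyn (1.04, adjusted p 0.000198) were higher. The phosphatase Ptpn11 (-0.76, adjusted p 0.00201) and the adaptor Shb (-0.59, adjusted p 0.00405) were lower. Under median centring both stood at 0.04, or at -0.36 and -0.37 relative to the median of 0.41 over all names tested under that setting. Of 11 negative regulators of receptor signalling, 7 were higher and 0 lower (0 also at an unadjusted p under 0.05 by limma), with a median of 0.73. They included Socs3 (2.09, adjusted p 1.23e-05), a cytokine signalling inhibitor, the ERK phosphatase Dusp6 (1.39, adjusted p 1.65e-05) and Ptpn1 (1.45, adjusted p 4.18e-05), a phosphatase that acts on receptor kinases. Both lists serve many receptors other than those for PDGF.

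Of 14 transcripts that PDGF induces in cultured fibroblasts, 5 were called higher and 2 lower (median 0.39). With the filter set to all 10 arrays, 6 were called. The chemokines Ccl2 (3.19, limma adjusted p 2.14e-06) and Cxcl1 (3.12, adjusted p 2.98e-05) and the transcription factor Egr2 (1.89, adjusted p 5.26e-05) were higher. Tissue factor, F3 (-1.27, adjusted p 2.65e-05), and the immediate early gene Fosb (-1.44, adjusted p 3.54e-05) were lower, so the list did not move in 1 direction. Ccl2 and Cxcl1 are chemoattractants of monocytes and neutrophils that many inflammatory stimuli also induce.

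Relatives of the family were read in the same way. Among 7 other class III receptor tyrosine kinases and their ligands, 2 were higher and 0 lower (median 0.32): Flt3 (2.42, limma adjusted p 3.05e-05), a receptor of dendritic and progenitor cells, and Csf1r (1.99, adjusted p 5.2e-05), the macrophage receptor, which is also in the macrophage marker list. With the filter set to all 10 arrays, 1 gene of this list was called. Among the 5 VEGF ligands, whose fold PDGF shares, 0 were higher and 1 lower (median -0.39), namely Vegfb at -1.28 (adjusted p 0.000272).

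**Figure D4:**
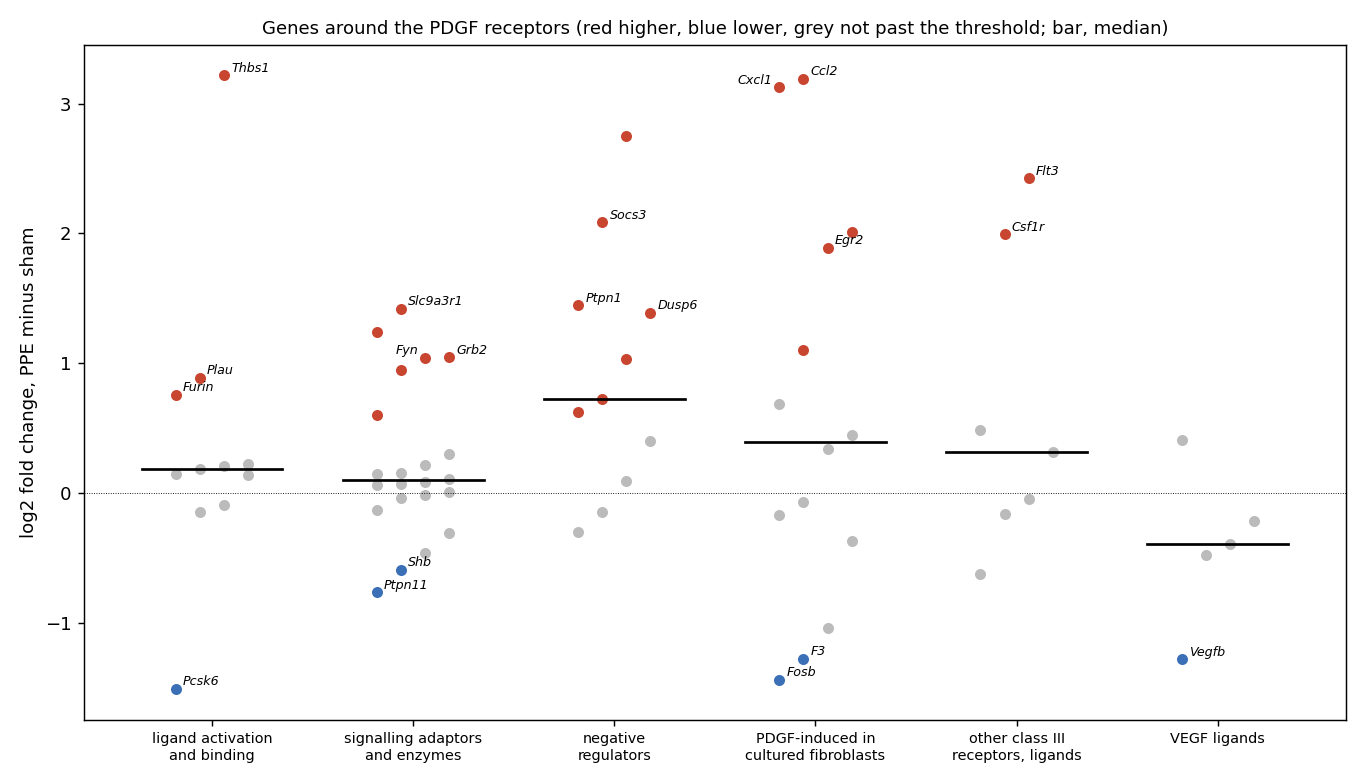
Log2 fold change of PPE over sham (vertical axis) for each tested gene of 6 lists around the PDGF receptors, red for higher, blue for lower and grey for not past the threshold, with a bar at each list's median. The medians run from -0.39 for the VEGF ligands to 0.73 for the negative regulators, and genes named in the text are labelled.

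Markers of the cell types that carry the receptors were set beside them. All 14 fibroblast markers were above background on all arrays, and 6 were higher and 1 lower (median 0.63), with Pdpn at 2.45 (limma adjusted p 9.12e-07) and Col3a1 at 1.95 (adjusted p 2.13e-05). Dpep1 was lower (-1.29, adjusted p 0.00137), and of the 7 that were not called, Clec3b (-0.60), Pi16 (-0.53), Cd34 (-0.44), Dcn (-0.25) and Dpt (-0.00287) were at or below 0. The others that were not called, Lum (1.22, adjusted p 0.0116) and Mfap5 (0.15), were above 0. The mean fibroblast ratio ran from 2.46 to 2.997 in sham and from 2.87 to 3.91 in PPE. Of 8 smooth muscle markers, 0 were higher and 6 lower (median -1.84), with Tagln at -2.95 (adjusted p 1.46e-06) and Acta2 at -2.49 (adjusted p 3.05e-05). Their mean ran from 3.22 to 4.39 in sham and from 1.62 to 2.85 in PPE, with no overlap. Of 10 pericyte markers 1 was higher, Cd248 (0.76, adjusted p 0.0062), and 1 lower, Cspg4 (-2.23, adjusted p 0.000446). Their mean ran from 2.31 to 3.17 in sham and from 2.31 to 3.03 in PPE.

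The difference of Pdgfrb, which did not pass the threshold, had the opposite sign to that of the smooth muscle markers. Differences between a member and the mean of a marker list were picked with the values in view and are given as descriptions, with no test. Pdgfrb minus the mean of the smooth muscle markers went from -1.54 ± 0.34 in sham to 1.02 ± 0.55 in PPE (SD, n = 5 each), a change of 2.56. Most of it came from the markers, whose mean went from 3.86 in sham to 1.95 in PPE, while Pdgfrb went from 2.33 to 2.97. Against the pericyte markers the change of Pdgfrb was 0.80, and against the fibroblast markers that of Pdgfra was 0.04, with overlap between the groups in the latter. The part of cell numbers in the receptor values was not tested.

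**Figure D5:**
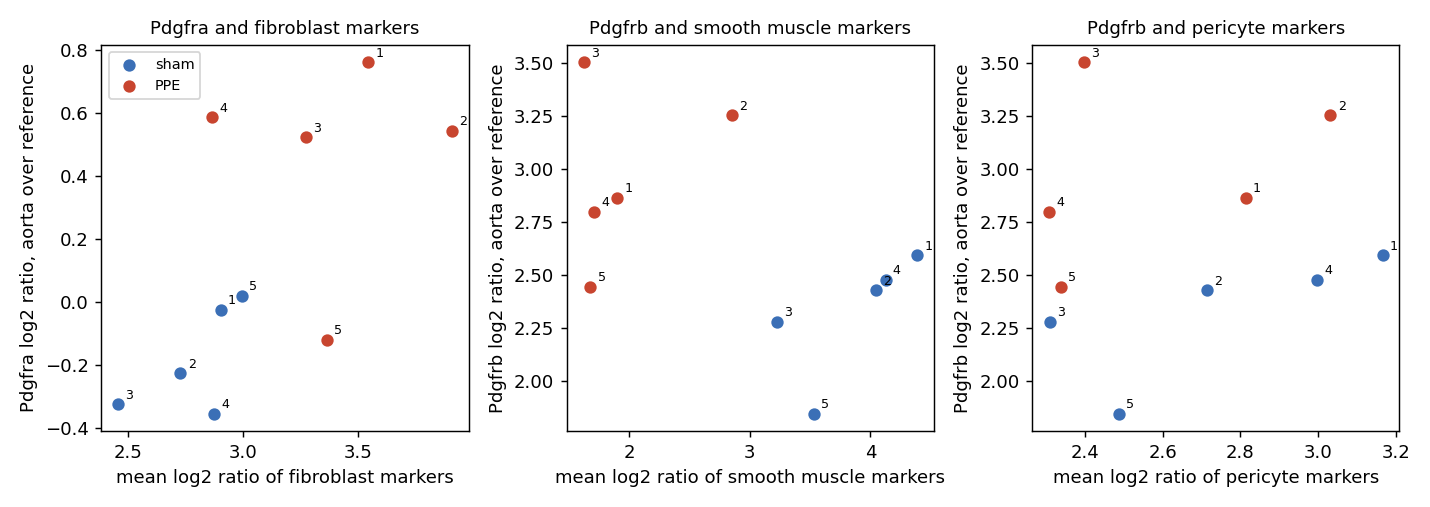
Log2 ratio of a receptor (vertical axes) against the mean log2 ratio of a marker list (horizontal axes), with 1 point per array labelled by replicate number, sham in blue and PPE in red. In the smooth muscle panel the PPE arrays lie at marker means of 1.62 to 2.85 and the sham arrays at 3.22 to 4.39, whereas the groups share the range of the pericyte markers.

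For Pdgfb, the markers of its known sources were read. Of 10 macrophage markers, 7 were higher and 0 lower (median 1.68), with Fcgr1 at 3.89 (limma adjusted p 3.42e-07) and Emr1 at 3.42 (adjusted p 2.74e-06), and their mean ran from 1.04 to 1.72 in sham and from 2.91 to 3.99 in PPE. None of the 10 endothelial markers was called by limma, although 2 had an unadjusted p under 0.05, both higher (median 0.15, mean 2.61 to 3.64 in sham and 2.79 to 3.91 in PPE). None of the 8 platelet markers was called by limma either, and 1 had an unadjusted p under 0.05 (median -0.11), with 3 of them above background on all arrays. The difference between Pdgfb and the mean of the macrophage markers changed by -1.11, and against the endothelial markers the change of Pdgfb was 0.60, again as descriptions. The part of these cells in the Pdgfb value was not tested.

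The remaining marker lists were read for other cells of the wall. Of 7 neutrophil markers 5 were higher (median 3.11), as were 5 of 6 T cell markers (median 2.44). In each of these lists 4 genes were above background on all 10 arrays, and the filter lets a gene pass on the PPE arrays alone, so these medians are over genes that could pass through the group where they are high. In the lists for mesothelium (median 0.01) and Schwann cells (median 0.46), 1 of 5 genes each was higher, Wt1 (2.54) and Mbp (1.11). At an unadjusted p under 0.05 by limma, 1 Schwann cell marker was lower. Above background on all 10 arrays were 2 of the mesothelial and 3 of the Schwann cell markers, so the same limit holds. Of 7 adipocyte markers (median -0.72) 1 was called lower, the brown fat gene Ucp1 (-2.94). At an unadjusted p under 0.05 by limma, 4 of the 7 were lower. None of 4 B cell or 5 skeletal muscle markers was called by limma, with 0 in either list at an unadjusted p under 0.05.

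Finally, the genes whose array-to-array pattern was most like that of each member were sought among 10710 symbols above background on all 10 arrays, by the correlation of deviations from the group means over the 10 arrays. The arrays share their depth and slide with both genes of a pair, and the pairs are the highest of many, so these are descriptions. Nearest to Pdgfb were Gnb2 (r = 0.898), Lancl2 (0.892) and Zc3h18 (0.884). Nearest to Pdgfa were Nelf (0.976), Afap1 (0.969) and Trp53inp2 (0.958), and to Pdgfc Esr1 (0.956), Frzb (0.948) and Aebp1 (0.944). Pdgfra was followed most closely by Prim2 (0.974), Dcaf12 (0.971) and Xpo1 (0.970), and Pdgfrb by Gpr125 (0.961), Kirrel (0.954) and Arhgef7 (0.945). The highest values of all belonged to Pdgfd, with Slc12a7 (0.991), Ppp1r12c (0.984) and Mtf1 (0.982), but in the scanner's own log ratios the same pairs correlated at 0.422, 0.664 and 0.578. The Pdgfd deviations also followed the share of red spots above background over the 10 arrays (r = 0.949), more closely than those of the other members, for which r ran from -0.419 to 0.717. Among the 3 neighbours of each member, the lowest correlation in the scanner's own log ratios was 0.323 for Pdgfra and 0.422 for Pdgfd. It was 0.488 for Pdgfc, 0.681 for Pdgfrb, 0.786 for Pdgfa and 0.875 for Pdgfb.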

How the data were processed

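Un-pooled aortic RNA (500 ng, Cy5) was hybridized by the authors against universal mouse reference (Cy3) on 2-colour Agilent arrays, with no dye swap, and some arrays were excluded by the authors after quality control and clustering. Which arrays these were is not given in the sources used here. Spot extraction by the authors used Agilent Feature Extraction (10.7.3.1). The deposited files give spot intensity and local background intensity, linear and not normalized, with 62976 spots per array, 59305 of them not controls. The deposited LogRatio is log10 of Cy5 over Cy3. The authors' series matrix holds log2 ratios of unstated centring, with array medians from -0.16 to 0.12. These match the log2 ratio of the processed channels (red over green) on 100% of spots within 1e-04. No spot was saturated.

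Background correction was by normexp (offset 50, which draws dim ratios towards 0) and normalization by loess within arrays, with limma 3.58.1 under R 4.3.3. Controls and 176 to 331 outlier spots per array were left out, and repeat spots were averaged. Probes entered the tests when above background in red on 5 or more of the 10 arrays, and a gene was read from its brightest tested probe. Groups came from the labels and were compared by limma (two-sided, unpaired, Benjamini-Hochberg over all 22519 names, threshold 0.01 after the study's false discovery rate). All adjusted p-values of genes are limma's. For the differences between pairs of members, exact permutation tests were used. The limma fit was tested on simulated data with noise drawn independently for each gene and array. That simulation held no slide or depth effects, so it cannot speak to them.

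The members and gene lists were chosen with earlier results of these data known. From each list, up to 3 called genes per direction with the smallest adjusted p were named, up to 2 from each marker list, and 3 nearest genes per member. Plat and the named fibroblast markers other than Pdpn and Col3a1 fall outside this rule and were chosen after their values were seen. The pathway lists hold ligand activation and binding, signalling adaptors and enzymes, negative regulators, PDGF-induced transcripts, other class III receptors and VEGF ligands. The marker lists hold fibroblast, pericyte, smooth muscle, endothelial, macrophage, platelet, neutrophil, T cell, B cell, adipocyte, mesothelial, Schwann cell and skeletal muscle genes. A2m, Src, Spry4 and Pax5 did not pass the filter, and Ly6g was not found by that name. Alternatives covered the offset, the LogRatio, the series matrix, median centring, the normalized red channel, the filter, the probe rule, slide, scan day and replicate blocks, array weights and left-out arrays. The normalized red channel was computed from the ratio after loess and the brightness after Aquantile, so it still depends on green. The study's SAM test needs refits of relabelled arrays and was not used.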

Additional observations from a re-analysis of the deposited data

Results flagged for a closer look

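Among 194 groups of 5 arrays examined, 10 held an array whose gap to its nearest neighbour, divided by the range of the group, was above the 95% critical value of 0.71, and chance gives about 1 in 20. For Pdgfa, sham 1 stood apart (ratio 0.748), at a log2 ratio of 1.78 against 1.11 for the next sham array. For Pdgfra, PPE 5 stood apart (ratio 0.73), at -0.12 against 0.52 for the next PPE array, and the SD among its own repeat spots (0.33) was the highest of all arrays.

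Among the other named genes, Trp53inp2 stood apart on sham 1 (0.861), Lancl2 on sham 4 (0.771), Xpo1 on PPE 5 (0.731), Furin on PPE 5 (0.711), Plau on PPE 4 (0.783), Plat on PPE 1 (0.758) and Socs3 on sham 5 (0.723). Furin on PPE 5 was the highest of its group, at 1.69 against 1.22 for the next array. Plau on PPE 4 (-1.13) was the lowest of its group and overlapped sham. Socs3 on sham 5 (-0.78) was the highest of the sham arrays but below every PPE array.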

How the results depend on the processing

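Pdgfb kept its direction under all 25 alternatives and its call under all but median centring (1.45, limma adjusted p 0.113). Under median centring the median over all names tested was 0.41, with 408 higher and 8 lower names. Of its calls 98.1% were higher, against 58.1% with loess and 50.6% with LogRatio. Median centring gave Pdgfa 0.268, Pdgfc -0.00255 (adjusted p 0.999) and Pdgfra 1.28 (0.266), or -0.14, -0.41 and 0.87 relative to that median. Genes moved by unequal amounts. Pdgfd went from -1.15 with loess to -0.66, and Ptpn11 from -0.76 to 0.0443. Called genes then numbered 1 for activation and binding, 0 for adaptors, 1 for negative regulators, 4 for PDGF-induced transcripts, 0 for class III receptors and 0 for VEGF ligands, with Ptpn11 at 0.0443 and Shb at 0.0385. Pdgfra lost its call with an offset of 16 (0.625, 0.0104), in the normalized red channel (0.636, 0.0424), without a filter (0.641, 0.0127) and with scan day as a block (0.587, 0.011). Pdgfc lost it in the normalized red channel (-0.578, 0.0203) and without a filter (-0.633, 0.0108). Pdgfd gained a call with slide as a fixed (-1.25, 0.0013) or random block (-1.24, 0.00731) and with scan day (-1.38, 0.00392), and Pdgfrb with array weights (0.722, 0.00735). The cause of these shifts was not tested.

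VEGF calls were 2 with LogRatio, the series matrix, the mean of probes, slide as a random block and sham 5 and PPE 5 left out, and 3 with array weights. Class III calls were 1 with the all-array filter and 4 with array weights. Pdgfrb minus Pdgfra changed by -0.0116 with offset 16, -0.0477 with LogRatio and the series matrix, -0.0195 with median centring and -0.178 without sham 5 and PPE 5. Pdgfd minus Pdgfc changed by 0.123 with LogRatio and the series matrix and by -0.66 with median centring (exact p = 0.0238). Emcn stood at -0.336 with LogRatio and the series matrix.

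Samples were not treated as paired by replicate number. The correlations of deviations for numbers 1 to 5 were 0.289, -0.277, 0.191, -0.129 and 0.496. Of the arrays, 1 of 5 sham and 2 of 5 PPE correlated best with their own number. These values also carry shared slide and depth, so they cannot decide whether equal numbers pair the samples. With the replicate block, 3023 names were higher and 2283 lower, Pdgfd was called (-1.15, 0.00107) and Pdgfra was not (0.641, 0.0205).

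Leaving out 1 array at a time, which also leaves fewer samples, gave -0.603 to -0.281 for Pdgfa, 0.819 to 0.923 for Pdgfb, -0.726 to -0.554 for Pdgfc, -1.42 to -0.843 for Pdgfd, 0.566 to 0.786 for Pdgfra and 0.514 to 0.778 for Pdgfrb. Higher names ranged from 2512 to 3615 and lower names from 1754 to 2352. Calls numbered 3 to 4 for activation and binding, 7 to 8 for adaptors, 7 to 7 for negative regulators, 7 to 8 for PDGF-induced transcripts, 2 to 4 for class III receptors and 1 to 2 for VEGF ligands. The pairs ranged from -0.165 to 0.108 (receptors), 1.13 to 1.53 (Pdgfb minus Pdgfa) and -0.69 to -0.285 (Pdgfd minus Pdgfc). Of the 25 alternatives, 1 (Aquantile between arrays) leaves the log ratios as they are by construction.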
